A study of Arabidopsis thaliana with 2 samples.

Results

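The genes described here are 10 genes known as regulators or markers of the endosperm, the nutritive tissue that surrounds the embryo of a seed. They were picked by identifier for their known roles, with earlier results of these data known: MEA, FIS2, FIE, MSI1, FWA, PHE1, AGL62, YUC10, MET1 and EPR1. All 10 were listed in both deposited tables, among 33602 gene models. RNA was taken from developing seeds of Arabidopsis thaliana at 10 DAP (the age as labelled) and sequenced as 2 libraries. The plants of one library carried OLEOp:GmPSKγ1, a construct of a soybean gene for a precursor of the peptide hormone phytosulfokine, behind a promoter labelled OLEOp. The other library came from plants with OLEOp:GmPSKγ1tc, the control of the study, whose label gives that promoter too. Both groups are thus transgenic, and RNA of 3 lines per genotype was pooled before sequencing. There is 1 library per genotype, so no spread between plants or lines can be given, no significance test can be made, and no p-value is reported.

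In flowering plants the endosperm forms after the fertilization of the central cell, and some of its genes are expressed from only the maternal or only the paternal copy, which is called imprinting. Polycomb repressive complex 2 (PRC2), which places a repressive methyl mark on histone H3, and DNA methylation by MET1 keep these copies apart. In the central cell and endosperm the complex is known to consist of MEA, FIS2, FIE and MSI1, and its loss lets the endosperm proliferate without fertilization or fail to form cells. The MADS-box genes PHE1 and AGL62 are known to act in the early endosperm, where AGL62 holds back the formation of cells, and YUC10 makes auxin there.

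Sequences of 3 of these genes bear on how their values are read, and all are from the RefSeq genome of build TAIR10.1. EPR1, an extensin-like gene, encodes a proline-rich cell wall protein and is known from the endosperm of germinating seeds. It has 1 exon, and of its 762 codons 333 (43.7%) were proline codons. Its coding sequence repeats with a period of 51 bases. The unit below lies at chr2:11715091-11715141 on the plus strand, stands 3 times in a row up to base 11715243 and occurs 4 times in all. Capitals mark the 8 proline codons among its 17 codons.
EPR1 unit: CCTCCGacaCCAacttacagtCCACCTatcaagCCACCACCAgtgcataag
PHE1 and PHE2 are close copies, with 85.9% identical columns in an alignment of their coding sequences. The longest stretch that both share is 120 bases, at chr1:24266495-24266614 on the minus strand in PHE1 and chr1:24255632-24255751 on the plus strand in PHE2, and a read that falls inside it cannot be assigned to either gene.
PHE1 and PHE2 shared stretch: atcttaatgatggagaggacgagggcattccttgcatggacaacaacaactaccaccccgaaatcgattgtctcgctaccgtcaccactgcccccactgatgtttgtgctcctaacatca
FWA, a homeobox gene, is the textbook case of a gene silenced by DNA methylation of repeats at its promoter. Its longest direct repeat in the 250 bases before to 50 bases after the annotated start is 38 bases long. The copies begin 45 bases apart on the plus strand, 111 and 66 bases before the start, at chr4:13038249-13038286 and chr4:13038294-13038331, and are identical.
FWA repeat: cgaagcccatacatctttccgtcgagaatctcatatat

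The values are FPKM, a read density corrected for the length of the gene and the depth of sequencing. The low values fell on even steps that put the libraries at 16.4 M reads for GmPSKγ1 and 15.3 M for the control (M, 1000000), and from these steps the reads behind each value were recovered. For 8 of the 10 genes they came out whole in both libraries within 0.05. MEA and EPR1 are the exceptions, and their reads are rounded estimates. Log2 ratios below are those of FPKM + 1, GmPSKγ1 over control, a scale that understates differences near or below 1 FPKM. An exact (Clopper-Pearson) 95% interval of the plain ratio was computed from the reads. These intervals cover counting error only, and copies of a molecule made by PCR count as separate reads in them. The values add up both parental copies of a gene, so imprinting itself was not measured. Of the 10 genes, 7 had a mean FPKM of at least 1 and are called measured. AGL62 stood just above that limit at 0.917 and 1.10 FPKM, and the nearest gene below it was FIS2.

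The 10 genes ran over the whole range of transcript levels, from genes at the detection limit to one of the most abundant transcripts of the seed. EPR1 ranked 16 of all 33602 gene models in GmPSKγ1 and 14 in the control, at 3640 and 4261 FPKM, or 0.529% and 0.617% of all FPKM. FIE had 40.1 and 36.3 FPKM and MSI1 37.5 and 34.3 FPKM, and the level of FIE over that of MSI1 was 1.07 in GmPSKγ1 (counting interval 0.978 to 1.17) and 1.06 in the control (0.961 to 1.16), so their order was not resolved. YUC10 and MET1 followed in both libraries. MEA, AGL62, FIS2, FWA and PHE1 were the 5 lowest, each below 2 FPKM. MEA stood above AGL62 in GmPSKγ1, with a level ratio of 1.89 (interval 1.09 to 3.43), while in the control the interval of 0.777 to 2.39 included 1. The order of FIS2, FWA and PHE1 was not resolved in either library.

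**Figure D1:**
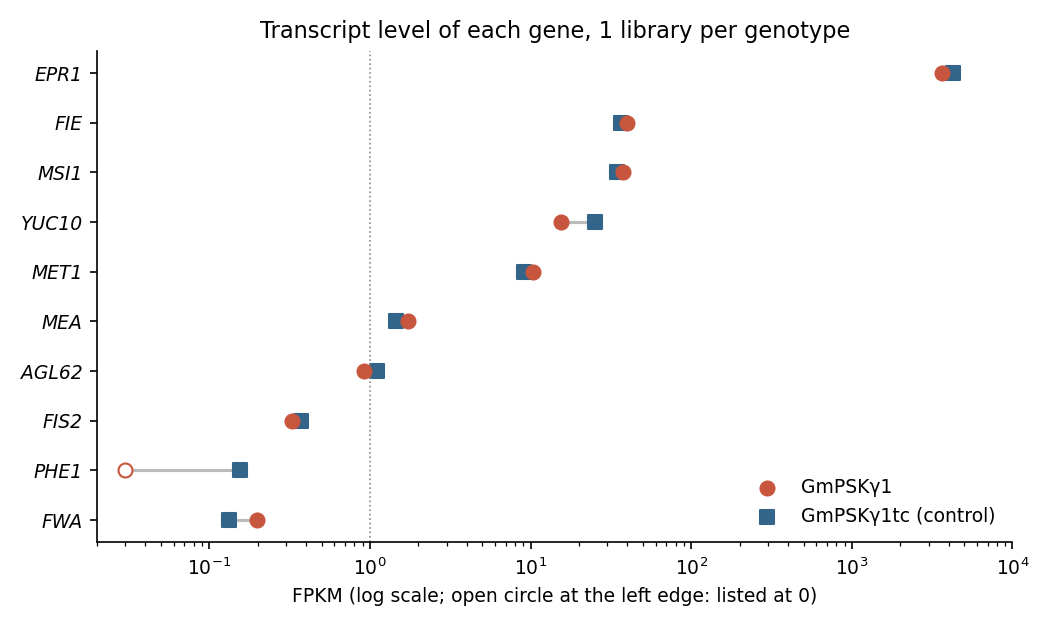
FPKM of the 10 genes on a log axis, with circles for GmPSKγ1 and squares for the control (1 library each); the dotted line marks 1 FPKM. EPR1 stands alone at 3640 and 4261 FPKM, the widest gap on this axis among genes above the line is that of YUC10 at 15.4 and 25.1 FPKM, and PHE1 is listed at 0 in GmPSKγ1 (open circle).

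YUC10 (AT1G48910; TAIR10 chromosome 1, 18091681 to 18093774, plus strand) showed the widest difference among the measured genes. It encodes a flavin monooxygenase that carries out the last step of auxin synthesis. Its level was 15.4 FPKM in GmPSKγ1, on 291 reads, and 25.1 FPKM in the control, on 443 reads. The control value was 1.63-fold higher (counting interval 1.40 to 1.90), a log2 ratio of -0.67. It was the only one of the 7 measured genes at least 1.5-fold apart in either direction, where 5.81% of all 17816 measured gene models were. Of all measured models, 2.68% were at least 1.5-fold lower in GmPSKγ1, and 1.91% had a lower ratio than YUC10. None of its 956 windows of 50 exon bases occurs elsewhere in the genome, and its model overlaps no other.

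No other measured gene of auxin synthesis had a ratio as far from 1 as YUC10, though few reads left some of the intervals wide. Of the 13 others listed, 5 were measured, with 2 higher and 3 lower in GmPSKγ1 and a median log2 ratio of -0.15. That split was 1 and 4 after median scaling (median -0.19). It was also 1 and 4 when the 50 most abundant genes were left out of the scaling (median -0.24). None of the 5 had a counting interval that left out 1, against 38.4% of all measured models. TAA1, which makes the precursor that YUC enzymes convert, had 15.3 and 13.9 FPKM, with a ratio of 1.10 (interval 0.940 to 1.29). The level of YUC10 was thus 1.01 times that of TAA1 in GmPSKγ1 and 1.81 times in the control. YUC4 had 7.50 and 8.50 FPKM (ratio interval 0.736 to 1.06) and YUC3, on 57 and 69 reads, had a ratio of 0.772 (0.534 to 1.11). The interval of YUC3 includes the YUC10 ratio of 0.614, so a gap of that size could not be told from none there. YUC10 held 52.9% of the summed FPKM of the 11 YUC genes in GmPSKγ1 and 62.4% in the control, while the other YUC genes together had 13.7 and 15.1 FPKM. YUC11, known from the endosperm as YUC10 is, was listed at 0 in both libraries, and its model overlaps another.

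Of the PRC2 genes, the subunits shared with other tissues were abundant and the endosperm subunits were scarce in both libraries. FIE (AT3G20740; chromosome 3, 7248809 to 7252452, minus strand) is the only gene of its class in Arabidopsis and encodes a WD40-repeat protein that every form of the complex needs. It had 40.1 FPKM in GmPSKγ1 on 1027 reads and 36.3 FPKM in the control on 868 reads, a ratio of 1.11 (interval 1.01 to 1.21). MSI1 (AT5G58230; chromosome 5, 23556012 to 23558245, plus strand), a histone-binding WD40 protein that also serves in chromatin assembly, had 37.5 and 34.3 FPKM, on 1000 and 854 reads, a ratio of 1.09 (interval 0.997 to 1.20). Both values were slightly higher in GmPSKγ1, and with the libraries rescaled by the median ratio of all measured genes neither interval left out 1. The model of MSI1 shares 132 bases with that of FHIT, which had 27.8 and 16.5 FPKM. If the reads of FHIT were spread evenly, 60.2 and 33.4 of them would fall on the shared bases, and their part in the MSI1 values was not tested. The model of FIE shares 337 bases with a gene at 0.591 and 0.233 FPKM.

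MEA (AT1G02580; chromosome 1, 544783 to 549202, plus strand), the histone methyltransferase of the endosperm complex and a maternally expressed imprinted gene, had 1.73 FPKM in the GmPSKγ1 library against 1.45 FPKM in the control library. Its ratio was 1.19 on about 67 and 53 reads, with an interval of 0.811 to 1.73, so a difference was not detectable at this depth. The methyltransferase genes that serve in other tissues were higher: CLF had 7.01 and 6.56 FPKM and SWN 23.5 and 25.2 FPKM. MEA therefore made up 5.37% of the summed FPKM of the 3 methyltransferase genes in GmPSKγ1 and 4.38% in the control.

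FIS2 (AT2G35670; chromosome 2, 14992565 to 14996756, plus strand), the zinc-finger subunit of the endosperm complex, had 0.326 and 0.374 FPKM, on 14 and 15 reads, a ratio of 0.872 with an interval of 0.390 to 1.94. Its counterparts EMF2 and VRN2 had 14.5 and 15.1 FPKM and 16.8 and 16.4 FPKM, and FIS2 held 1.03% and 1.17% of the 3 genes' sum. The last 44 bases of the FIS2 model overlap AT2G35680, a protein phosphatase gene on the other strand, at 79.1 and 86.2 FPKM. Spread evenly, the reads of that gene would put 57.1 and 58.1 reads on the shared bases, more than all those listed for FIS2. Whether the libraries keep the strand is not stated, so reads of the pair cannot be told apart and the part of the neighbour in the FIS2 values was not tested. The level of FIE was 23.2 and 24.9 times that of MEA and 123 and 97.1 times that of FIS2. In whole seeds, fewer cells of a type and less RNA per cell cannot be told apart, so these levels do not give the makeup of the complex in any 1 tissue.

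**Figure D2:**
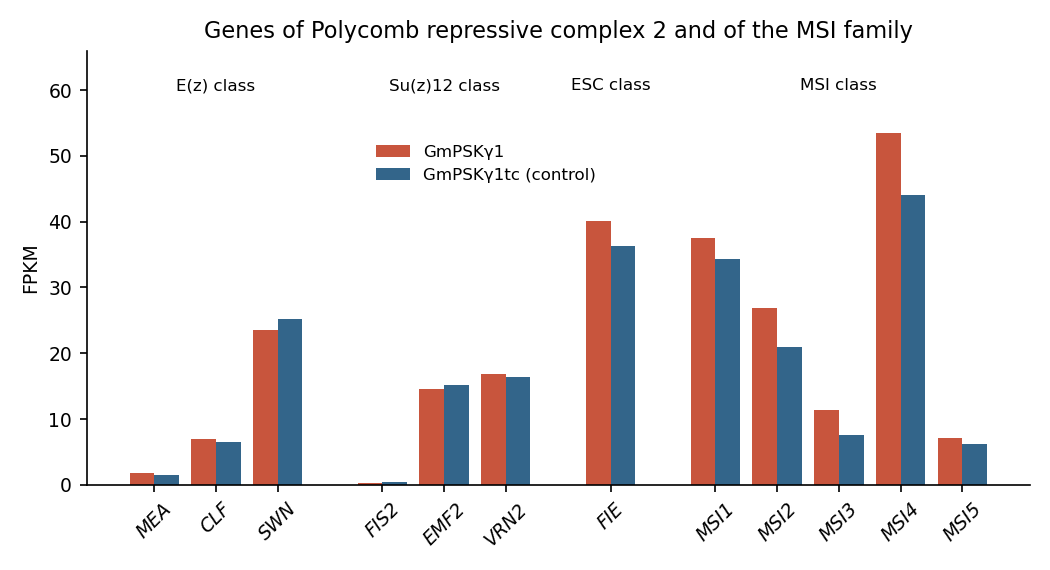
FPKM of the genes of Polycomb repressive complex 2 and of the MSI family, grouped by subunit class, with a bar for each library. MEA and FIS2 are the lowest bars of their classes (1.73 and 1.45, 0.326 and 0.374 FPKM), and the MSI genes are each higher in GmPSKγ1.

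The other PRC2 and MSI-family genes were all measured, 8 of 8, with 6 higher and 2 lower in GmPSKγ1 (5 and 3 after median scaling) and a median log2 ratio of 0.12, beside 0.05 over all measured genes. The counting interval lay above 1 for 3 of the 8 (MSI2, MSI3 and MSI4) and below 1 for none, where 24.0% of all measured models lay above and 14.5% below. MSI3, a paralog of MSI1, had 11.3 and 7.57 FPKM, a ratio of 1.49 (interval 1.23 to 1.81). MSI2, another paralog, had 26.9 and 21.0 FPKM, a ratio of 1.28 (interval 1.13 to 1.44). MSI4, known as the flowering regulator FVE, was the most abundant at 53.5 and 44.1 FPKM (ratio interval 1.13 to 1.31). The 4 MSI genes beside MSI1 summed to 98.8 and 79.0 FPKM, so MSI1 made up 27.5% of the family in GmPSKγ1 and 30.3% in the control. MSI1 shares 60.1% of aligned coding columns with MSI2 and with MSI3, and no window of 50 exon bases of these 3 genes occurs elsewhere in the genome.

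MET1 (AT5G49160; chromosome 5, 19932230 to 19938369, plus strand), the DNA methyltransferase that maintains methylation after replication, had 10.4 FPKM in GmPSKγ1 on 824 reads and 9.06 FPKM in the control on 672 reads. Its ratio was 1.15 (interval 1.03 to 1.27) and its log2 ratio 0.18, which 70.4% of all measured genes fell short of. After rescaling by the median ratio its interval included 1. Of the 18 other genes of DNA methylation and demethylation, 17 were measured, with 12 higher and 5 lower, and a median log2 ratio of 0.06. That split was 10 and 7 after median scaling, and 8 and 9, with a median of -0.02, when the 50 most abundant genes were left out of the scaling. Intervals lay above 1 for 8 and below 1 for 2 of the 17, beside the 24.0% and 14.5% of all measured models. VIM3 and VIM1, cofactors that guide MET1 to freshly replicated DNA, had the largest ratios of the list, at 1.53 for VIM3 (220 and 134 reads, interval 1.23 to 1.92) and 1.34 for VIM1 (18.9 and 14.1 FPKM, interval 1.19 to 1.52). AGO4, of RNA-directed DNA methylation, was the most abundant at 131 and 125 FPKM. DME, the DNA glycosylase that removes methylation in the central cell and so opens MEA, FIS2 and FWA, had 8.60 and 10.0 FPKM, a ratio of 0.858 (interval 0.785 to 0.936). This list split into 8 higher and 9 lower genes when the libraries were rescaled without the 50 most abundant genes.

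FWA, PHE1 and FIS2 were below the minimum of 1 FPKM, and no difference of the first 2 could be seen at this depth. FWA (AT4G25530; chromosome 4, 13038360 to 13042443, plus strand), whose maternal copy is expressed in the endosperm, had 0.199 FPKM on 8 reads in GmPSKγ1 and 0.133 FPKM on 5 reads in the control, and the interval of the ratio ran from 0.431 to 5.81. PHE1 (AT1G65330; chromosome 1, 24266481 to 24267320, minus strand), a paternally expressed target of the endosperm complex, was listed at 0 in GmPSKγ1 and at 0.155 FPKM, on 2 reads, in the control. A count of 0 allows up to 0.218 FPKM there, taken as 3 reads, which is above the control value. PHE2 had 0.0729 and 0.468 FPKM, on 1 and 6 reads. Of the windows of 50 exon bases of PHE1, 8.98% also occur in PHE2, within the shared stretch printed above. The treatment of reads that map to both is not stated.

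AGL62 (AT5G60440; chromosome 5, 24306294 to 24307716, plus strand), a type I MADS-box gene, had 0.917 FPKM on 17 reads in GmPSKγ1 and 1.10 FPKM on 19 reads in the control, with a ratio interval of 0.408 to 1.70. Most of the listed genes of its class were silent or nearly so in both libraries. Of 20 other type I MADS-box genes, 13 were listed at 0 in both and 2 were measured. AGL102 had 8.79 and 6.24 FPKM (ratio interval 0.984 to 2.03), and AGL80, known from the central cell, had 4.61 and 5.51 FPKM (interval 0.616 to 1.13). A listed 0 for AGL36 or AGL90 is uncertain, since 15.9% and 15.6% of their 50-base windows occur elsewhere in the genome. A CArG box, the motif that MADS-domain proteins bind, was found on either strand in the promoter window of 1 of the 10 genes, MET1, and in 3.05% of 27443 promoters of the same length. The match, CCATTTATGG, lies at chr5:19932028-19932037, 86 bases before the RefSeq start of MET1, which differs from the deposited start printed above. All promoter windows follow the RefSeq starts, and only 3 of the 10 genes have deposited ends as in that reference.

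EPR1 (AT2G27380; chromosome 2, 11713411 to 11715696, plus strand) was lower in GmPSKγ1, at 3640 against 4261 FPKM on about 136392 and 149137 reads. The control was 1.17-fold higher (interval 1.16 to 1.18), and the narrow interval reflects the number of reads and says nothing of the spread between plants. The log2 ratio was -0.23, and 13.4% of all measured genes had a lower one. Of its 50-base windows, 11.0% recur inside the gene and none elsewhere in the genome. A read from a repeat can therefore have several places within EPR1, and the effect of this on its value was not tested.

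Over the 7 measured genes, 4 were higher and 3 lower in GmPSKγ1, with a median log2 ratio of 0.13 and a range of -0.67 to 0.18. Over all measured models the median was 0.05 and 57.9% were higher. None of the 7 was at least 2-fold apart, where 1.23% of all measured models were. The counting interval left out 1 for 4 of the 7, above 1 for FIE and MET1 and below 1 for YUC10 and EPR1. Over all measured models it did so for 38.4%, with 24.0% above and 14.5% below. Only YUC10 and EPR1 kept an interval without 1 under each of the 3 rescalings and at a confidence level of 99%.

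**Figure D3:**
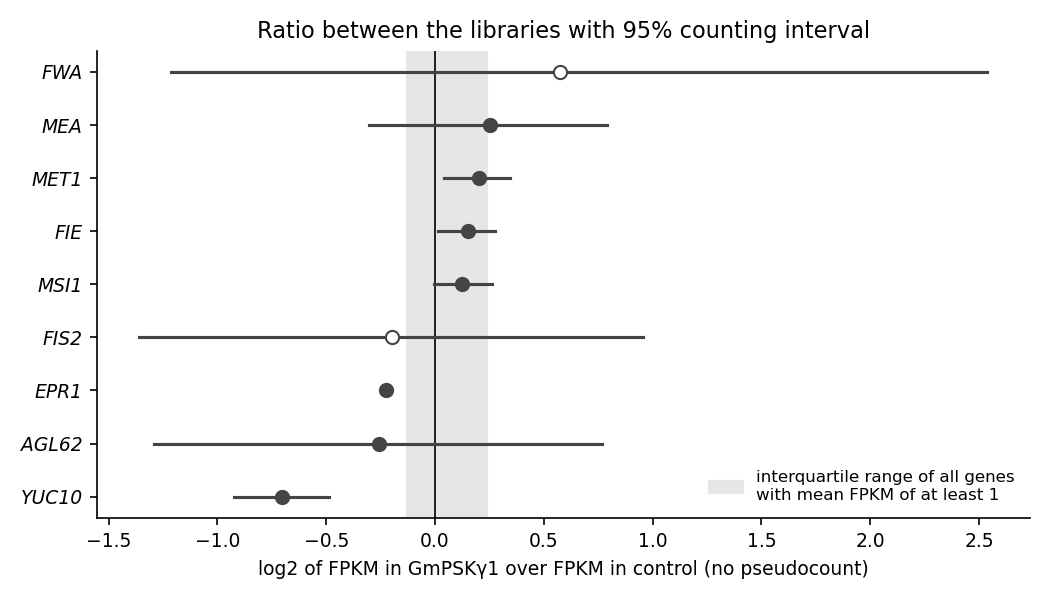
Log2 of the FPKM ratio, GmPSKγ1 over control, with exact 95% counting intervals as lines; open circles are genes below 1 FPKM, PHE1 is left out because it is listed at 0 in GmPSKγ1, and the grey band is the interquartile range of all measured genes. The interval of YUC10 (ratio 0.527 to 0.713) lies wholly to the left of the black line, which marks a ratio of 1. Those of MEA, MSI1, AGL62, FIS2 and FWA span the line, and that of EPR1 is narrower than its symbol.

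Other imprinted genes and markers of the endosperm were compared to set these values beside the tissue as a whole. Of 14 other imprinted genes, 8 were measured, 4 higher and 4 lower, with a median log2 ratio of 0.00. AHL10, a paternally expressed gene of the AT-hook family and the most abundant, had 14.1 and 11.4 FPKM (ratio 1.24, interval 1.08 to 1.43) and VIM5, a relative of VIM1, had 10.9 and 9.11 FPKM (1.20, interval 1.02 to 1.40). The intervals of the other 6 measured genes included 1. All 6 endosperm markers were measured, with 4 higher and 2 lower and a median of 0.10. Their summed level was 187 and 179 FPKM, of which ICE1 alone gave 64.2 and 56.1 FPKM. The counting interval lay above 1 for 2 of the 6 and below 1 for none, where 24.0% of all measured models lay above and 14.5% below. The 2 were ICE1 and ALE1. ICE1, a partner of the endosperm breakdown factor ZOU, was the most abundant at 64.2 and 56.1 FPKM (ratio 1.14, interval 1.08 to 1.21). ALE1, an endosperm subtilase gene, had 16.2 and 13.8 FPKM (1.17, interval 1.05 to 1.31). EDE1, of endosperm microtubules, had 4.06 and 3.14 FPKM (ratio interval 0.966 to 1.73), and MYB118 had 36.6 and 36.3 FPKM (interval 0.922 to 1.10). The markers that were lower in GmPSKγ1 were ZOU itself, at 9.74 and 11.4 FPKM (interval 0.696 to 1.04), and the sucrose transporter gene SUC5, at 55.9 and 58.2 FPKM (interval 0.897 to 1.03). The 6 markers split into 3 higher and 3 lower when the libraries were scaled to a common median ratio (list median 0.05) and when the 50 most abundant genes were left out of the scaling (0.02). The part of tissue makeup in the values of YUC10 and EPR1 was not tested.

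**Figure D4:**
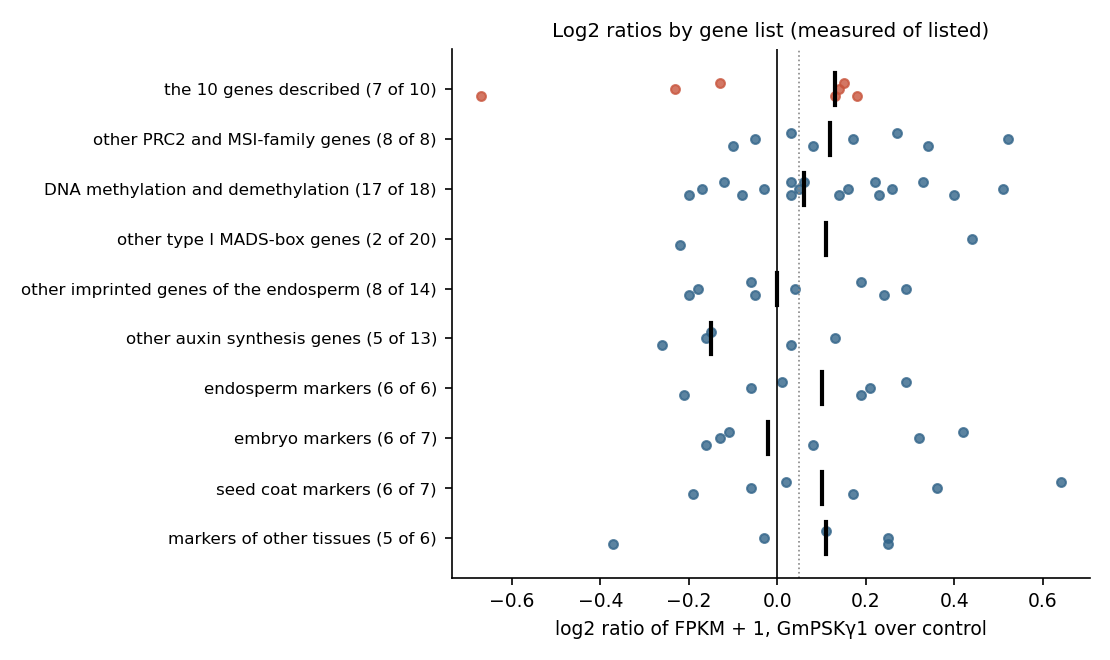
Log2 ratios of FPKM + 1, GmPSKγ1 over control, of every measured gene by list, with black bars at the medians and a dotted line at the median of all measured genes (0.05). The list medians lie between -0.15 and 0.13, YUC10 is the lowest point at -0.67 and the seed coat marker MUM2 the highest at 0.64.

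Markers of the embryo, the seed coat and other tissues checked the labelled tissue. Embryo markers had a median log2 ratio of -0.02 and sums of 860 and 910 FPKM, with PDF1, of the epidermis, at 542 and 607 FPKM, LEC1 at 19.2 and 15.2 FPKM and WOX8 at 4.06 and 2.78 FPKM. Counting intervals of the 6 measured embryo markers lay above 1 for 3 and below 1 for 2, where 24.0% and 14.5% of all measured models did. Seed coat markers had a median of 0.10 and sums of 829 and 863 FPKM. Intervals lay above 1 for 3 and below 1 for 1 of the 6 measured. There the laccase gene TT10 had 597 and 682 FPKM (ratio 0.875, interval 0.859 to 0.892). BAN, of tannin synthesis, had 117 and 91.1 FPKM (1.29, interval 1.21 to 1.37). MUM2, of mucilage, had 51.4 and 32.6 FPKM (1.58, interval 1.47 to 1.69). Markers of all 3 seed compartments were thus present in both libraries, but not every marker was. The embryo marker WOX2 was below the minimum at 1.08 and 0.538 FPKM, on 15 and 7 reads, and STM was low at 1.70 and 1.96 FPKM. The seed coat transporter gene TT12 was at 0.212 and 0.189 FPKM. Of the 6 markers of other tissues, 5 were measured, with sums of 7958 and 7207 FPKM and a median of 0.11. Most of these sums came from the photosynthesis genes CAB1 and RBCS1A, at 5065 and 4697 FPKM and 2421 and 2030 FPKM. Which tissue their RNA came from was not tested. VGD1, a pollen marker, had 3.69 and 5.07 FPKM. Of the silique wall markers, FUL was below the minimum at 0.432 and 0.231 FPKM, and SHP1, also of the seed coat, had 14.7 and 12.2 FPKM.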

How the data were processed

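Developing seeds of 2 genotypes were sequenced as 1 library each. The deposited FPKM values were computed by the authors; the submitters' processing notes name Bowtie 0.12.2 and the genome build TAIR10. No FPKM program, annotation release or rule for reads with several places is given in the sources used here. The members and gene lists were chosen with earlier results of these data known.

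The size of 1 read was taken from single-exon models whose ends match the reference and that overlap no other: 0.0610 FPKM × kilobase in GmPSKγ1 and 0.0653 in the control. Below 200 reads, 99.5% of such values in each library were whole within 0.05. Reads elsewhere used the reference exons (RefSeq, TAIR10.1) within the deposited ends, which exist for 32826 models, of which an interval was given for 17669 measured ones. Ratios used a pseudocount of 1 and a minimum mean FPKM of 1. Named genes are all members and, of each list, the most abundant measured gene and the 2 with the largest absolute log2 ratio; other PRC2, YUC and methylation genes, markers and neighbours were named for the comparison they stand in, after their values were seen. The alternatives tried were pseudocounts of 0.1 and 5, minimums of 0 and 5, thresholds of 1.5-fold and 4-fold, a confidence level of 99% and 3 rescalings. The intervals were tested on simulated data. Python 3.11.15, scipy 1.17.1 and Biopython 1.88 were used.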

Additional observations from a re-analysis of the deposited data

How the results depend on the processing

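No paired analysis was possible because each genotype has 1 library, and no library could be left out. The count of members at least 2-fold apart was 0 under every alternative run except the lower threshold of 1.5-fold, where it was 1 (YUC10). With a count of 0 as deposited, the threshold of 4-fold and the minimum of 5 FPKM could return only 0. The number of members whose counting interval left out 1 was 4 as deposited, 2 (YUC10 and EPR1) when rescaled by the median ratio and also 2 without the 50 most abundant genes, 5 at a sum of 1000000, where MSI1 was added, and 3 at a confidence level of 99%. These rescalings shifted the median log2 ratio of all measured genes by -0.05, -0.07 and 0.01. The log2 ratio of EPR1 was -0.28 and -0.31 under the first 2 of them. The members' median, 0.13 as deposited, was 0.05 without the 50 most abundant genes and 0.02 with no minimum FPKM. None of the 10 members changed direction under the 3 rescalings, while some genes of the wider lists did. A pseudocount cannot change a direction, so those runs do not bear on this. The intervals of MEA, MSI1, AGL62, FIS2, FWA and PHE1 included 1 as deposited, so the direction of these genes was not resolved. Depth limits MEA, AGL62, FIS2, FWA and PHE1.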

Other observations

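The gene models beside the members were also compared. Of the 20 nearest neighbours, 11 were measured, with 4 higher and 7 lower in GmPSKγ1 and a median log2 ratio of -0.03. Over all measured models 57.9% were higher and the median was 0.05. Of the 11, 1 was at least 2-fold and 2 were at least 1.5-fold apart, where 1.23% and 5.81% of all measured models were. Neighbours are named below after their values were seen. The widest difference among the measured neighbours was that of AT2G27385 (chromosome 2, 11716001 to 11717432, minus strand), which faces EPR1 with 304 bases between their deposited ends. Annotated as an extensin family gene, it had 23.3 FPKM in the GmPSKγ1 library against 7.10 FPKM in the control library, on 444 and 127 reads, which is a ratio of 3.28 (interval 2.68 to 4.01 by counting error), while EPR1 itself was lower in GmPSKγ1. FHIT, which overlaps the end of MSI1, had a ratio of 1.68 (interval 1.43 to 1.98). Beside YUC10, AT1G48900, of the signal recognition particle, had 34.5 and 34.9 FPKM (interval 0.904 to 1.08), and AT1G48912, listed at 0 in both libraries, gives no ratio. AT5G49170, which lies 206 bases after MET1, had 1.21 FPKM on 18 reads in GmPSKγ1 and was listed at 0 in the control. Its mean was below 1 FPKM, and its ratio interval began at 4.11 and had no upper end. CBSX6, beside PHE1, had a ratio of 0.729 on 220 and 282 reads (interval 0.608 to 0.872).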
